A study of Drosophila melanogaster with 48 samples.

Results

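Pairs of RNA cleavage sites that lie more than 250 and at most 600 nt apart behind the same stop codon were described in testes of Drosophila melanogaster. The pairs were chosen by the reads themselves: the reads of all 12 lysate libraries were pooled for each stop codon, sites within 50 nt were joined to the one with most reads, and the 2 sites with most reads were kept where each held at least 5% of the reads of both. Of 11709 stop codon rows, 6943 had 2 or more joined sites and 4927 a pair that met the 5% limit. In 1434 of these pairs, in 1414 genes, the spacing fell in this range. The site nearer to the stop codon is called proximal and the other distal.

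All libraries came from bam-/-;hsBam flies grown at 22 °C. These animals lack working bam, a gene that spermatogonia need to stop dividing and become spermatocytes, and carry a copy that heat switches on. By the labels every library came from animals that had a heat pulse of 30 min at 37 °C in the pupal stage, with recovery at 25 °C. Total lysate was taken 0, 16, 24, 32, 48 and 72 h after the shock, and a polysome gradient at 24, 48 and 72 h was pooled into free RNA, the 40S and 60S subunits, the 80S monosome and polysomes (2-3 ribosomes, and 4+ ribosomes), with 2 libraries per group. Hours after the shock run with the age of the animal and with recovery from heat, and these cannot be told apart.

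A nascent transcript is cut and given its poly(A) tail at a cleavage site, and many genes have several sites behind the same stop codon. Cutting at the proximal site gives the same protein from an mRNA with a shorter 3′ untranslated region (3′UTR), which loses the stretch where RNA-binding proteins and small RNAs could bind. In a polysome gradient, an mRNA that carries more ribosomes sediments further, and an mRNA with none stays in the free pool.

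The proximal site of the chosen pairs lay a median of 187.5 nt from the stop codon and the distal site 595.0 nt, with a median spacing of 370.0 nt. The members had a median of 3360 pooled reads, with quartiles at 1357 and 8400. The proximal site was the major one in 662 members (46.2%), close to the 46.0% of all pairs, and held a median of 45.8% of the pooled reads. These values took part in the choice and are given as a description. GstS1, a glutathione S-transferase gene, had the most reads (518342, of which 88.0% were at the proximal site), followed by the cytoplasmic actin gene Act5C (289963, 33.4%), the elongation factor gene eEF1gamma (228686, 18.0%), the gene of the AT-hook DNA-binding protein D1 (199764, 91.8%) and the nucleoplasmin-like gene Nlp (160616, 10.7%). Just inside the limits of spacing lay Cip4 and aay at 1 nt over the lower limit of 250 nt, fzr at 599 nt and tok at 600 nt. Just outside lay Mlp60A and CG11076 at 250 nt, stv at 603 nt and TM9SF3 at 606 nt. At the limit on the minor site, CG31638 (5.01%) and Roc1a (5.03%) lay inside and eIF3a (4.99%) and CG31098 (4.97%) outside.

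Matched on the gene and the distance past its stop codon, 1253 members were found again in the fraction files, which hold dm6 positions. Of these, 1239 proximal and 948 distal sites lay in an annotated 3′UTR, and 152 distal sites lay past the annotated end of the gene. In 122 members (9.74%, against 4.76% of all pairs) the distal site lay inside another gene on the same strand. The files do not say to which of the genes the reads of such a site belong. Members were spread over the arms much like all pairs, with 271 (18.9%, against 18.7%) on chromosome X.

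Lysate libraries held 12.04 to 20.7 M listed reads (M, 1e6 reads) and fraction libraries 0.445 to 9.57 M. A site is listed from 20 reads upward in lysate and from 10 in fractions, so a share of 0% or 100% means that a site fell under this limit, not that it was unused. In the 0 h replicate 1 library, no site was listed in any of the 611 rows of a 7.01 Mb stretch of chromosome X, and in 0 h replicate 2 none in any of the 197 rows of another stretch of 2.57 Mb. These held 84 and 32 members. In the other 0 h library 454 and 135 of those rows had listed sites. The share tests against 0 h needed at least 60 reads at the pair in each library compared. With both 0 h libraries in the fit none of these 116 members entered, while a fit without 1 of these libraries could hold members of its stretch. None of the 116 members is named here for its level against 0 h. Counts of site levels are given with and without them. The 72 h 60S replicate 2 library was the smallest, and median shares of the 72 h 60S pool are not compared. Spermatocyte markers rose with time: 11 genes summed to 52.7 and 56.1 CPM at 0 h, 1510 and 1540 at 48 h and 806 and 923 at 72 h. CPM are counts per 1e6 reads, with each library total first scaled by trimmed means. The gene CG18628 alone stood at 504600 and 438100 CPM at 0 h, 115500 and 66890 at 48 h and 211600 and 146300 at 72 h. Fewer of the listed reads were thus left for other genes at 0 h, where more sites could fall under the listing limit. Summed markers of fat body and haemolymph were at 425 and 662 at 0 h, at 2070 and 2140 at 16 h, at 1780 and 1810 at 24 h, at 573 and 685 at 32 h and at 341 and 379 at 72 h. The 17 muscle markers stood at 1310 and 1880 at 0 h, 1800 and 2430 at 24 h, 1390 and 1410 at 32 h, 1170 and 1350 at 48 h and 1120 and 1270 at 72 h. Both sums were thus lower after 24 h, when the shares below were higher. The 12 cyst cell markers were lower too (298 and 347 at 24 h, 172 and 192 at 48 h). Against 0 h, the base of the tests below, each of these sums overlapped at 48 h. At 72 h the fat body and haemolymph sum and the muscle sum lay under both 0 h libraries. The cyst cell sum (164 and 172 at 72 h) overlapped 0 h. Cyst cell markers were at 134 and 218 at 0 h, and fat body and haemolymph markers at 481 and 751 at 48 h. The part of these cells in the shares below was not tested. In bulk tissue, fewer cells of a type and less RNA per cell cannot be told apart.

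Over the 786 members with at least 60 reads in all 12 lysate libraries, the median proximal share moved up between 24 and 48 h. It was 38.0% and 29.7% in the 2 libraries at 0 h, 31.0% and 31.0% at 16 h, 32.8% and 32.0% at 24 h, 42.4% and 44.98% at 32 h, 54.8% and 54.4% at 48 h, and 50.4% and 52.8% at 72 h. The libraries of 32, 48 and 72 h all stood above those of 0, 16 and 24 h. At 0 h the libraries themselves differed by more than at any other time (33.9% ± 5.83, SD, n = 2). All 2436 pairs at any spacing went from 38.4% ± 5.57 at 0 h to 55.7% ± 0.76 at 48 h and 52.3% ± 1.72 at 72 h (SD, n = 2), and pairs over 600 nt apart from 40.4% ± 6.50 to 57.7% ± 0.59 and 53.4% ± 1.99. The direction was therefore shared with the other spacings.

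**Figure D1:**
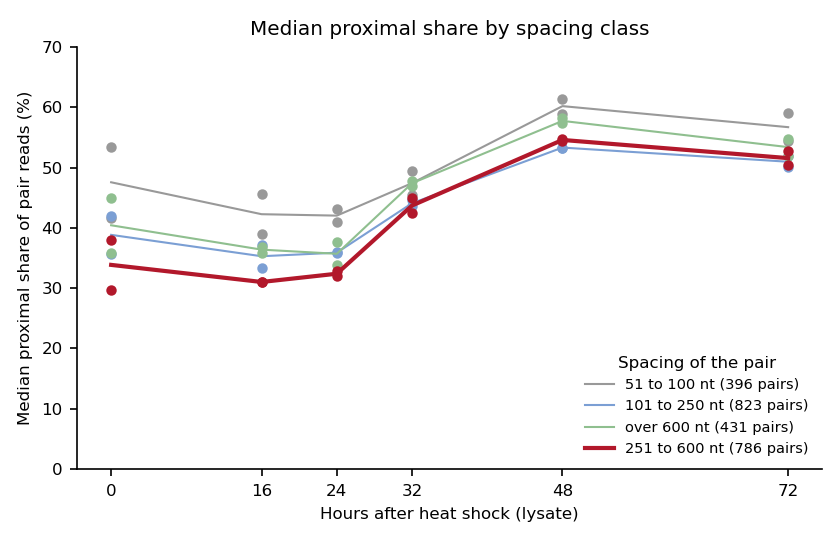
Median proximal share of pair reads (%) against hours after heat shock in lysate, for the members (red, 786 pairs) and 3 other spacings. Points are libraries and lines join the means of 2 libraries; the members stood at 29.7% and 38.0% at 0 h and at 54.4% and 54.8% at 48 h.

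The share of each pair was tested as log2(proximal/distal) with limma, adjusted by Benjamini-Hochberg over all pairs tested at a threshold of 0.05. The pairs had been chosen from the pooled reads of the same lysate libraries that were tested here. A site unlisted at 0 h could thus enter a pair through its reads at later times. All pairs, at any spacing, were chosen in this way, and its effect on the counts below was not tested. At 16 and 24 h, 1 of 847 members tested passed, against 0.115% and 0.0765% of all pairs in either direction. The same member, CG31313, passed at both times, and its call was lost when reads within 100 nt of each site were counted. At an unadjusted p of 0.05, 58 members (6.85%) passed at 16 h and 96 (11.3%) at 24 h, close to the 6.39% and 10.9% of all pairs tested. At 32 h, 110 of 830 members tested moved toward the proximal site and 4 toward the distal one. The shares of all pairs tested were 10.5% and 1.17%. At 48 h, 301 of 831 moved toward the proximal and 26 toward the distal site, against 30.9% and 3.94% of all pairs. At 72 h the counts were 227 and 20 of 833, against 23.8% and 2.79%. The median change of the members was 0.42 at 32 h, 0.99 at 48 h and 0.72 at 72 h, against 0.31, 0.78 and 0.57 over all pairs. Of the 813 members tested at both times, 296 had moved toward the proximal site at 48 h and 226 at 72 h, and 200 at both. The comparisons share the 0 h libraries. With only the libraries compared in the fit, no member passed at 32 h, and 177 toward the proximal and 7 toward the distal site passed at 48 h. Without 0 h replicate 1 the median change at 72 h was 0.78 over 974 members tested, and without 0 h replicate 2 it was 0.83 over 872. These fits thus hold other sets of members than the 833 above. Calls toward the distal site were more frequent without replicate 2. With replicate 1 as the only 0 h library, the median changes were -0.20 at 16 h, -0.21 at 24 h and 0.38 at 32 h. With replicate 2 as the only one they were 0.03, 0.07 and 0.55. Many more members passed at 16, 24 and 32 h with replicate 1 alone than with both. At 16 and 24 h most of these went toward the distal site. Of the calls toward the proximal site, 35 of 110 at 32 h, 198 of 301 at 48 h and 158 of 227 at 72 h were made whichever 1 of the 4 libraries was left out.

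Genes of cell division and protein turnover were among the members that moved. vih encodes the ubiquitin-conjugating enzyme that works with the anaphase-promoting complex, which marks cyclins for destruction. Its sites lay 377 and 673 nt from the stop codon, in the 3′UTR at chr3L:12505525-12505821 (dm6, plus strand). The proximal site was unlisted in both 0 h libraries and had 45 and 24 reads at 16 h, 26 and none listed at 24 h, 161 and 89 at 32 h, 959 and 1512 at 48 h, and 1525 and 1563 at 72 h. The distal site had 926 and 456 reads at 0 h and 532 and 535 at 72 h. The proximal share was thus 0% at 0 h, 19.1% and 14.1% at 32 h, 63.1% and 58.7% at 48 h and 74.1% and 74.5% at 72 h. The 48 and 72 h libraries lay above all earlier ones, with no overlap. The change at 72 h was 7.56 (SE 0.64) on the log2 scale (limma, adjusted p = 3.08e-05). The fold has no fixed size, since an unlisted site entered the test at 10 reads. As levels, the proximal site of vih rose by a log2 of 6.96 (SE 0.34, adjusted p = 8.4e-08) and the distal one changed by -0.53 (SE 0.30, adjusted p = 0.20). In the level test, too, the unlisted proximal site entered at 10 reads in both 0 h libraries. The size of this rise is thus not fixed, and its SE holds no measured spread at 0 h.

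Klp3A encodes a kinesin of the spindle midzone that is needed for cytokinesis in male meiosis. Its proximal site had 123 and 90 reads at 0 h, 348 and 238 at 32 h, 748 and 1226 at 48 h, and 1009 and 976 at 72 h. The distal site stayed low, with 50 and 22 reads at 0 h and 29 and 20 at 72 h. The proximal share was already 71.1% and 80.4% at 0 h and reached 97.2% and 98.0% at 72 h, with no overlap (log2 change 3.73, SE 0.59, adjusted p = 0.00098). CycA, the gene of cyclin A, took another course in time. Its proximal share was 34.4% and 47.0% at 0 h, 52.2% and 55.6% at 24 h, 81.6% and 88.4% at 32 h, 81.7% and 83.7% at 48 h and 65.1% and 66.1% at 72 h. CycA was thus highest at 32 and 48 h and lower again at 72 h, where its call (log2 change 1.5, SE 0.41, adjusted p = 0.020) was lost without either 72 h library, without 0 h replicate 1 or with only the libraries compared. The CycA call at 48 h was 2.82 (SE 0.41, adjusted p = 0.00054). At other sites of the row, CycA had 29.1% of its pooled reads. Cul5, a cullin scaffold of ubiquitin ligases, had no listed proximal site at 0 h (440 and 252 distal reads) and proximal shares of 33.0% and 25.4% at 72 h (log2 change 3.78, SE 0.63, adjusted p = 0.0014).

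Rab40, a small GTPase gene, had proximal shares of 0% in both libraries at 0 h and at 16 h, 22.4% and 33.3% at 32 h, 89.4% and 70.9% at 48 h and 59.2% and 75.4% at 72 h. The Rab40 libraries of 48 and 72 h overlapped each other and not those of 0 h (48 h: 7.03, SE 0.85, adjusted p = 0.00021). mtd, whose protein has a TLDc domain, rose to 84.6% and 79.9% at 48 h and stood at 61.7% and 56.2% at 72 h, from 0% at 0 h (48 h: 7.76, SE 0.56, adjusted p = 2.82e-05). The mtd pair held less than the other sites of its row, which had 53.2% of the pooled reads.

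Some of the members that changed most have no name beyond a gene number. CG32137 had proximal shares of 0% at 0 h, 11.4% and 0% at 32 h, 83.5% and 80.5% at 48 h and 92.2% and 95.5% at 72 h (log2 change 8.86, SE 0.73, adjusted p = 2.67e-05). CG32137 therefore switched between 32 and 48 h. CG8617 was earlier, with 0% at 0 h, 18.8% and 39.6% at 24 h, 72.4% and 72.2% at 32 h and 90.9% and 91.9% at 72 h (7.27, SE 0.71, adjusted p = 6.16e-05). CG3558 went from 0% at 0 h to 81.8% and 87.9% at 32 h and 84.6% and 89.8% at 72 h. The CG3558 change was 5.90 at 32 h (SE 0.83, adjusted p = 0.0027) and 7.18 at 48 h (SE 0.82, adjusted p = 0.00015), and its 32 h call was lost with only the libraries compared. For these 3 genes the 72 h and 0 h libraries did not overlap.

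RNA-binding protein genes were themselves members. Hrb98DE, of the hnRNP A1 family, had proximal shares of 3.6% and 2.7% at 0 h, 30.7% and 27.9% at 32 h, 53.9% and 62.2% at 48 h and 60.2% and 67.0% at 72 h (5.74, SE 0.54, adjusted p = 5.28e-05). For Hrb98DE the proximal site gained reads, from 45 and 20 at 0 h to 883 and 989 at 72 h, and the distal site lost them, from 1214 and 728 to 584 and 487. Its distal site lay in sequence annotated as intron, and other sites of the row held 35.2% of its pooled reads. Rbp9, of the ELAV family, peaked at 48 h with 68.2% and 60.6% and was at 24.8% and 25.5% at 72 h, from 0% at 0 h. At other sites of its row, Rbp9 had 46.5% of its pooled reads. The Rbp9 call at 72 h (2.89, SE 0.74, adjusted p = 0.014) was lost without either 72 h library or without 0 h replicate 2.

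**Figure D2:**
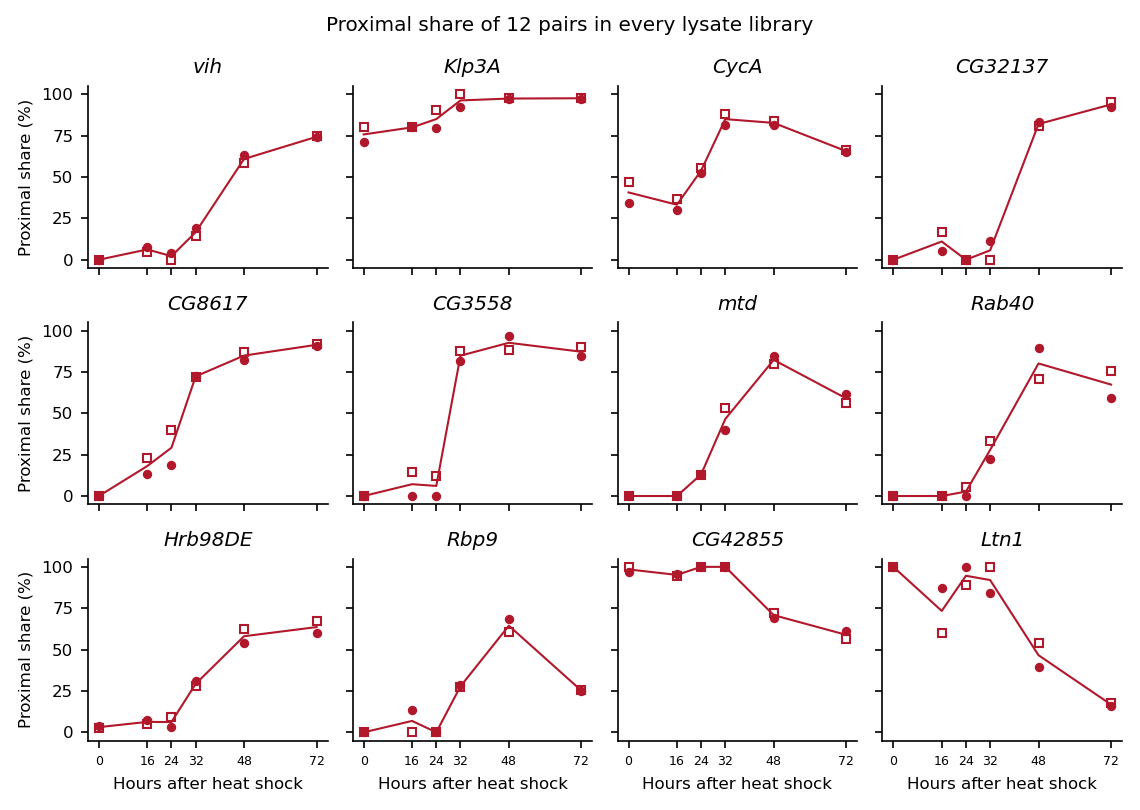
Proximal share (%) of 12 pairs against hours after heat shock, with replicate 1 as filled circles, replicate 2 as open squares and a line through the means. In vih, CG32137 and CG8617 the share was 0% at 0 h and above 70% at 72 h; CycA, mtd and Rbp9 were lower at 72 h than at 48 h, and CG42855 and Ltn1 fell.

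Fewer members moved toward the distal site. Ltn1, the ubiquitin ligase of stalled ribosomes, had only proximal reads listed at 0 h (80 and 63), while at 72 h it had 129 and 156 proximal and 686 and 728 distal reads. Its proximal share was 39.2% and 54.0% at 48 h and 15.8% and 17.6% at 72 h (-5.14, SE 0.81, adjusted p = 0.00098). In pll, the kinase gene of the Toll pathway, the share was 100% at 0 h, 35.7% and 42.3% at 48 h and 27.5% and 27.7% at 72 h (-5.29, SE 0.57, adjusted p = 0.00011). CG42855 had shares of 96.9% and 100% at 0 h and 61.4% and 56.4% at 72 h, but both its sites rose: proximal reads went from 722 and 520 to 4635 and 3976 and distal reads from 23 and none listed to 2912 and 3074 (-4.73, SE 0.41, adjusted p = 3.58e-05). In these 3 genes the 72 h shares all lay under the 0 h shares. The largest changes in this direction, of Vps15 (-8.84) and Dok (-8.67), had their distal site inside another gene. The same held for some of the largest changes toward the proximal site. At 72 h the distal site lay inside another gene in 7 of the 20 members called toward the distal site. Toward the proximal site it did so in 10 of the 227 called, among 64 tested. Another 4 of the 20 and 9 of the 227 were not matched in the fraction files. The place of their distal sites is not known, and Ltn1 and pll are among them.

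Levels of the sites, tested with limma and scaled by trimmed means, showed which of the pair moved between 0 and 72 h. Of 1330 proximal sites tested, 493 rose and 88 fell (median log2 change 0.68). Of 1323 distal sites, 166 rose and 152 fell (median -0.22). Over all 22067 sites tested, 27.1% rose and 8.22% fell, with a median of 0.22. Without the members in the missing X stretches, 455 proximal sites rose and 88 fell of 1225, and 152 distal sites rose and 152 fell of 1217. Scaled by total reads, the median of all sites shifted from 0.22 to 0.39, and 180 distal sites rose and 83 fell. The balance of the distal sites hung on single libraries: leaving out 0 h replicate 2 gave 336 that rose and 231 that fell, and 0 h replicate 1 gave 161 and 189. Leaving out 72 h replicate 1 gave 130 and 49, and 72 h replicate 2 gave 125 and 48. With only the 0 and 72 h libraries in the fit, 145 rose and 54 fell. Among the 227 members with a share called toward the proximal site, the proximal site rose and the distal one was not called in 153. In 46 the proximal site rose and the distal one fell, in 16 only the distal one fell, in 5 both rose, and in 7 neither was called. The median changes in these 227 were 3.07 at the proximal and -0.64 at the distal site. Among the 20 called toward the distal site, only the distal site rose in 11. These levels and the shares come from the same reads and the same libraries, from which the pairs were also chosen.

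**Figure D3:**
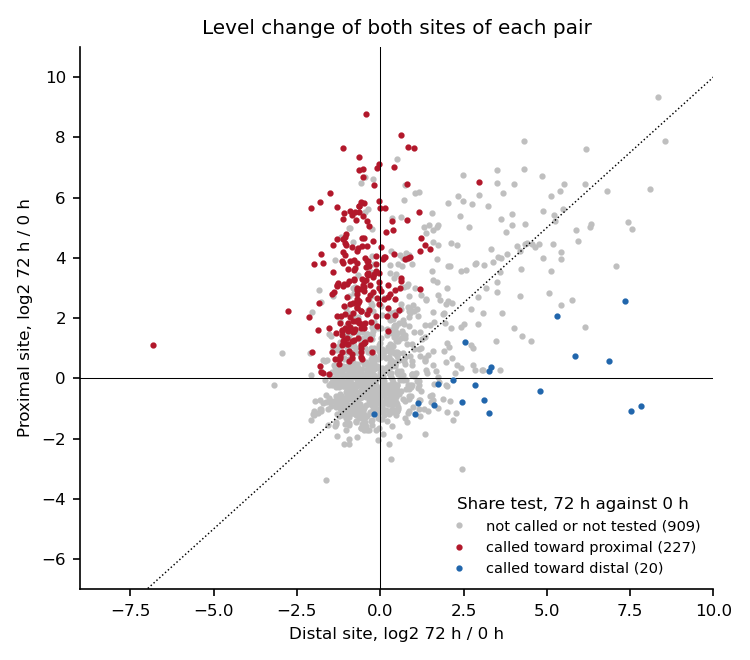
Log2 change of the proximal site (y) against that of the distal site (x), 72 h over 0 h in lysate, for members with both sites tested and outside the missing X stretches. Red points are the 227 pairs called toward the proximal site, which lie mostly above 0 on the y axis, blue points the 20 called toward the distal site, and the dotted line marks equal change.

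The place of the pair is given beside the calls as a description. With the distal site in the 3′UTR, 190 of 612 members tested at 72 h moved toward the proximal site, and with the distal site past the annotated end 17 of 72. By spacing, 88 of 343 pairs up to 350 nt apart, 74 of 262 over 350 and up to 450 nt and 65 of 228 over 450 nt moved toward the proximal site. On chromosome X, 20 of 106 tested did so, with a median of 0.19, and the missing stretches leave fewer X members tested. None of 8 tested muscle marker genes among the members was called at 48 or 72 h. By gene lists, members of the ELAV and related RNA-binding family were called toward the proximal site in 3 of 6 tested at 72 h. For ubiquitin ligases and their regulators the count was 2 of 8, for cytoskeleton and membrane traffic genes 2 of 7, for mitotic and cell cycle genes 2 of 3 and for signalling genes of the niche and cyst 1 of 7. Cleavage factors had 0 of 3 and translational repressors 0 of 4, although 2 of 3 cleavage factor members were called at 48 h. The list members called toward the distal site at 72 h were 1 ubiquitin list gene and the replication gene dup. Over all pairs tested the share was 23.8%, and with so few members per list nothing is read from the differences.

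The levels of genes that encode cleavage and polyadenylation factors were compared in the same way. Of 20 tested in this list, 4 rose and none fell at 72 h, with a median log2 change of 0.05, against 35.6% of all genes rising, 11.4% falling and a median of 0.46. Cbp20, a subunit of the nuclear cap-binding complex, stood at 35.4 and 39.4 CPM at 0 h and 128 and 131 at 72 h (log2 change 1.79, SE 0.23, adjusted p = 0.00015). Pcf11, which acts in cleavage and in termination, rose from 29.7 ± 3.86 to 56.2 ± 5.71 CPM (SD, n = 2, limma adjusted p = 0.0078). Pcf11 is itself a member. snama and cbc also rose. Of 21 tested genes of ELAV and related RNA-binding proteins, 5 rose and 4 fell (median -0.27). Syp, which encodes an hnRNP Q/R-type protein, rose from 109 ± 16.2 to 445 ± 130 (log2 change 2.00, adjusted p = 7.07e-05) and heph, the polypyrimidine tract-binding protein gene, from 99.7 ± 20.95 to 219 ± 13.3 (1.15, adjusted p = 0.0012). The hnRNP gene Hrb27C fell from 1957 ± 460 to 876 ± 132 CPM (-1.15, adjusted p = 0.0013), and sqd fell from 597 ± 113 to 326 ± 7.43 (-0.86, adjusted p = 0.0067). U2af50, counted among the 5, was unlisted in 0 h replicate 1. With only the libraries of 0 and 72 h in the fit, 8 of the 13 list genes passed.

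Across the gradient, 438 members had at least 30 reads in every library outside the 60S pools. At 24 h their median proximal share was 29.3% and 28.1% in free RNA, 34.4% and 31.4% in 40S, 46.2% and 42.3% in 80S and 40.6% and 37.2% in 4+ ribosomes. Free RNA thus had the lowest proximal share at 24 h, in both libraries. At 48 h it was 50.7% and 47.0% in free RNA, 62.0% and 55.98% in 40S and 55.6% and 52.7% in 4+ ribosomes. At 72 h the order between the ends had turned: free RNA held 58.7% and 53.4%, 40S 65.5% and 64.4%, and 4+ ribosomes 51.7% and 52.4%. Of these 5 pools, counting 80S and 2-3 ribosomes, both 40S libraries were highest at 72 h and both 4+ libraries lowest. Over all 1364 pairs covered in this way, at any spacing, free RNA was low at 24 h too. It held 31.6% and 31.8%, against 45.45% and 42.1% in 4+ ribosomes. At 72 h all pairs overlapped, with 58.3% and 53.6% in free RNA and 55.15% and 53.8% in 4+ ribosomes.

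**Figure D4:**
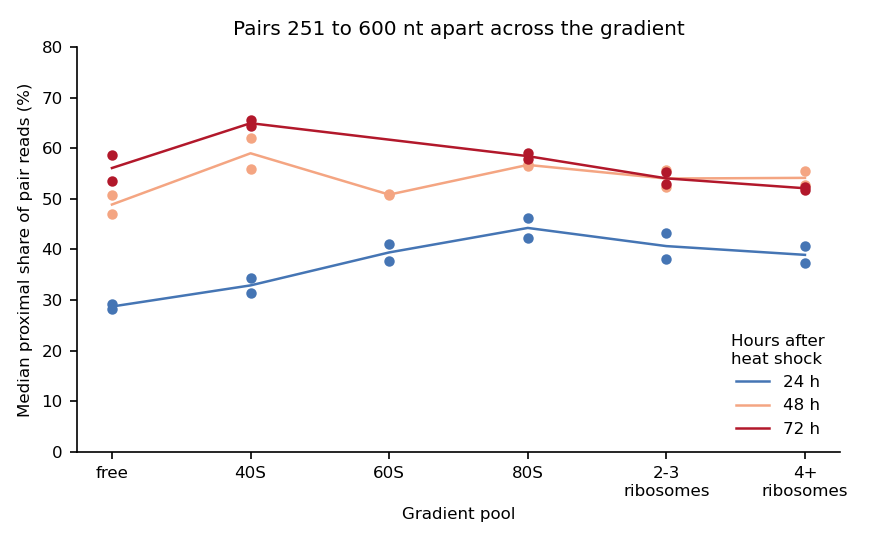
Median proximal share of pair reads (%) in each gradient pool at 24, 48 and 72 h, over the 438 members with at least 30 reads in each library outside the 60S pools; 60S medians, over the members covered there, are left out at 72 h. Points are libraries and lines join their means; at 24 h free RNA stood at 28.1% and 29.3%, and at 72 h 4+ ribosomes at 51.7% and 52.4%.

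Against free RNA, 51 of 759 members tested were shifted toward the proximal site in 4+ ribosomes at 24 h and 9 toward the distal one. All pairs gave 5.81% and 0.636%. The median difference was 0.60 for the members and 0.60 for all pairs. At 48 h, 21 of 722 were shifted toward the proximal and 4 toward the distal site, against 2.52% and 0.299% of all pairs (medians 0.41 and 0.45). At 72 h, 8 of 764 were shifted toward the proximal and 37 toward the distal site, against 1.76% and 3.33% (medians -0.23 and -0.15). The distal site lay inside another gene on the same strand in 6 of the 9 at 24 h and 10 of the 37 at 72 h. Toward the proximal site this held for 0 of the 51 and 1 of the 8, among 59 and 73 such members tested. Many of the calls against free RNA hang on single libraries. Left out 1 at a time, the libraries compared left 12 of the 51 and 1 of the 9 calls at 24 h, 1 of the 21 and none of the 4 at 48 h, and 2 of the 8 and 7 of the 37 at 72 h. With only the libraries compared, 19 and 1 members passed toward the proximal and distal site at 24 h, 10 and 2 at 48 h, and 32 and 78 at 72 h, more than in the fit over all pools at 72 h and fewer before. Without 48 h free replicate 1, only 1 member passed at 48 h. Without 72 h free replicate 1, 11 passed at 72 h, and without either 24 h free library 16 passed at 24 h. Against 80S, 3 of 745 members passed at 24 h, 1 of 719 at 48 h and 7 of 825 at 72 h, where all pairs gave 0.128%, 0.0873% and 0.649% in either direction. None of these calls against 80S was made in every fit with 1 library left out.

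The time of the lysate shift and the place in the gradient were set side by side. At 72 h, the 228 members that had moved toward the proximal site at 48 h in lysate had a median difference between 4+ ribosomes and free RNA of -1.12, with 1 called toward the proximal and 21 toward the distal site. The 341 members tested in lysate and not called had 0.10, with 6 and 9. At 24 h the medians were 0.40 (221 members) and 0.64 (388), and at 48 h 0.05 (216) and 0.58 (365). Fraction and lysate libraries are separate, and no test of these differences was made. The difference between 72 and 24 h was tested for each pair, and 2 of 608 members passed, against 0.365% of all pairs; the members' median was -0.94 and that of all pairs -0.80.

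Hsp27, a small heat shock protein gene, had a higher proximal share in 4+ ribosomes than in free RNA at all 3 times. Its proximal site lay 2 nt past the stop codon and its distal site 454 nt (chr3L:9384833-9385281, dm6, plus strand). At 24 h free RNA had 288 and 216 proximal against 9290 and 9778 distal reads, while 4+ ribosomes had 8945 and 8788 proximal against 1522 and 1530 distal reads. The proximal share of Hsp27 was 3.0% and 2.2% in free RNA, 80.2% and 81.8% in 80S and 85.5% and 85.2% in 4+ ribosomes, with no overlap between free RNA and the others. The difference between 4+ and free was 7.79 (SE 1.40, adjusted p = 0.0014) at 24 h, 7.55 (SE 1.42, adjusted p = 0.0040) at 48 h and 5.66 (SE 1.40, adjusted p = 0.019) at 72 h. The Hsp27 call at 72 h was lost without any 1 of the 4 libraries, that at 48 h without free replicate 1 or 4+ replicate 2, and all 3 with equal weights for all libraries. In 40S at 72 h the Hsp27 replicates stood apart, at 0% and 45.8%. In lysate the proximal share of Hsp27 was 40.3% and 28.9% at 0 h and 27.3% and 25.2% at 72 h.

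Pep, a gene of a zinc finger protein found at ecdysone puffs, had the same order. Free RNA of Pep had 88 and 80 proximal and 4630 and 2549 distal reads at 24 h, and 95 and 94 against 4116 and 3220 at 72 h. In 4+ ribosomes Pep had 1842 and 1384 proximal and 3763 and 2380 distal reads at 24 h, and 1264 and 2811 against 2226 and 4566 at 72 h. The 4+ and free libraries did not overlap, and the difference was 4.45 (SE 0.68, adjusted p = 0.00017) at 24 h, 3.71 (SE 0.68, adjusted p = 0.0022) at 48 h and 4.51 (SE 0.69, adjusted p = 0.00026) at 72 h. For schlank, the ceramide synthase gene, the proximal share at 24 h was 11.4% and 12.3% in free RNA, 69.8% and 81.8% in 80S and 74.3% and 89.7% in 4+ ribosomes (5.20, SE 0.65, adjusted p = 2.07e-05). At 72 h schlank had 41.5% and 55.5% in free RNA and 75.1% and 73.6% in 4+ ribosomes, and the difference did not pass (1.62, SE 0.66, adjusted p = 0.17). D1 was nearly all proximal: 89.6% and 88.8% in free RNA and 98.8% and 98.5% in 4+ ribosomes at 24 h (3.18, SE 0.42, adjusted p = 2.60e-05). At 72 h D1 had 96.0% and 96.5% in free RNA and 97.9% and 97.3% in 4+ ribosomes, and the difference did not pass (0.68, SE 0.42, adjusted p = 0.40).

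Other members had the reverse order at 72 h. vih, described above in lysate, had 881 and 462 proximal against 179 and 56 distal reads in free RNA at 72 h. In 4+ ribosomes vih had 61 and 93 proximal against 241 and 226 distal reads. The proximal share of vih was thus 83.1% and 89.2% in free RNA, 74.6% and 90.9% in 40S, 27.9% and 33.6% in 80S and 20.2% and 29.2% in 4+ ribosomes, with no overlap of 4+ with free or 40S (-4.27, SE 0.77, adjusted p = 0.0016). Between 4+ ribosomes and 80S the vih difference was -0.45 (SE 0.78, adjusted p = 0.94). At 24 h vih had at most 27 proximal reads in any gradient library. CG8617 had proximal shares of 96.6% and 92.7% in free RNA and 54.5% and 58.7% in 4+ ribosomes at 72 h (-3.89, SE 0.83, adjusted p = 0.0057). CG8617 and vih were among the members with the largest lysate changes. Hrb98DE also changed in lysate and did not pass at 72 h (0.10, SE 0.81, limma adjusted p = 0.97).

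Frl, a formin gene of actin assembly, had proximal shares of 93.8% and 87.1% in free RNA and 90.1% and 92.9% in 80S at 72 h, and of 31.7% and 29.0% in 4+ ribosomes, where it had 13 and 31 proximal and 28 and 76 distal reads. Frl differed between 4+ ribosomes and free RNA (-4.54, SE 0.94, adjusted p = 0.0059) and between 4+ ribosomes and 80S (-4.66, SE 0.90, adjusted p = 0.013). The Frl call against 80S was lost without any 1 of the 4 libraries and with equal weights. At other sites of its row, Frl had 41.9% of its pooled lysate reads. CG32066 had 922 and 244 proximal against 36 and 23 distal reads in free RNA at 72 h, while 4+ ribosomes had 37 and none listed against 90 and 236 (-6.67, SE 1.10, adjusted p = 0.00053). At 24 h the CG32066 proximal site was listed in neither free library and in 1 of the 4+ libraries.

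fzr encodes Cdh1, the activator of the anaphase-promoting complex that follows mitotic exit. At 24 h its proximal share was 3.3% in both free libraries, 8.2% and 13.9% in 40S, 20% and 11.1% in 80S and 36.4% and 26.1% in 4+ ribosomes. At 72 h fzr had 56.6% and 43.2% in free RNA, 92.0% and 91.6% in 40S, 47.3% and 68.9% in 80S and 9.5% and 24.2% in 4+ ribosomes. Free RNA lay under 4+ ribosomes at 24 h and above it at 72 h. The difference between 4+ and free was 3.73 (SE 0.80, adjusted p = 0.0055) at 24 h and -2.32 (SE 0.75, adjusted p = 0.070) at 72 h, and the fzr difference between the times was -6.05 (SE 1.10, adjusted p = 0.018). The fzr call at 24 h was lost without 24 h 4+ replicate 1 or either 24 h free library, and that of the difference without these or 72 h free replicate 1. Both were lost with only the libraries compared. Both fzr sites lay in the 3′UTR, 107 and 706 nt from the stop codon.

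**Figure D5:**
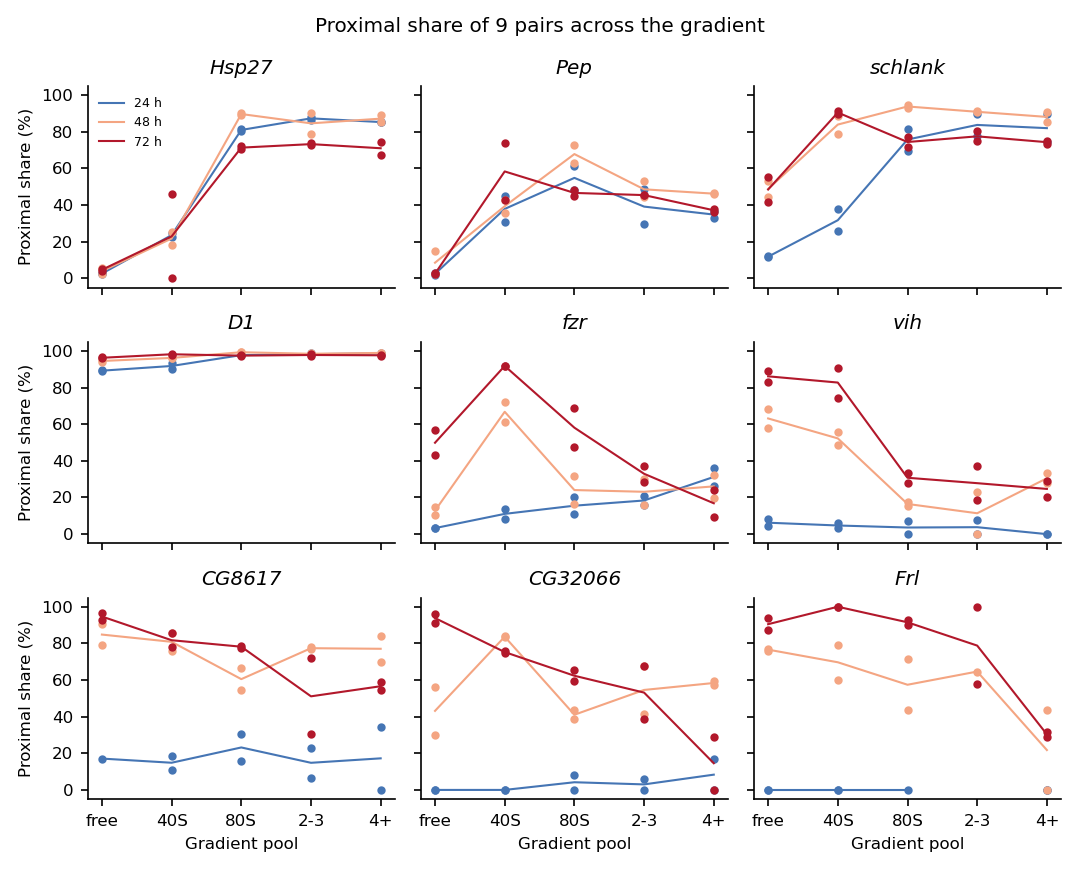
Proximal share (%) of 9 pairs in 5 gradient pools (60S left out) at 24 h (blue), 48 h (orange) and 72 h (red); points are libraries with at least 30 reads at the pair and lines join their means. The means of Hsp27 and Pep were lowest in free RNA at each time, while those of vih, CG32066 and Frl were lowest in 4+ ribosomes at 72 h.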

How the data were processed

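RNA 3′ ends of 48 testis libraries (12 lysate, 36 gradient pools) were sequenced with QuantSeq 3′ FWD. The submitters' processing notes name Bowtie 0.12.8 as a tool and dm6 as the genome build. The authors deposited, for each stop codon, positions and read counts of cleavage sites packed in a text column, so the unit is not a plain count. Per the file headers and names, no further normalization is recorded. The members and gene lists were chosen with earlier results of these data known.

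Lysate stop codons did not match the dm6 annotation, so a lysate site was joined to a fraction site of the same gene at the same distance past the stop, within 25 nt (1097 of the 1253 matched members within 5 nt). The log2 ratio of proximal to distal reads was tested with limma 3.58.1 (R 4.3.3), weighted by reads, over all pairs at any spacing; the spread was estimated once over all 12 lysate and once over all 36 fraction libraries. Libraries needed 60 (lysate) or 30 (fraction) reads at the pair, and unlisted sites entered at 10 or 5 reads. Site and gene levels were tested with voom and trimmed-mean scaling (factors 0.72 to 1.30 in lysate), with an unlisted site or gene entered at 10 reads. Tables were read with Python 3.11.15 and pandas 2.3.3. The procedure was also run on simulated data with a common spread for all libraries of a kind. Those data do not cover the wider spread between the 0 h libraries.

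Replicates are biological by the labels. Named genes had an adjusted p of at most 0.05, mean pair reads of 200 or more and replicates that do not overlap, with the largest changes per comparison (12 and 8 at 72 h) and list members. Text picks among these were made after their values were seen, and values of D1, vih, CG8617 and Frl in other comparisons were added in the same way. No genome sequence was used, and no sequences are shown. 1 named member is not reported here.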

Additional observations from a re-analysis of the deposited data

Results flagged for a closer look

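The difference between 4+ ribosomes and free RNA itself differed between 72 and 24 h in 2 members, by the limma test of that difference. In CG32066 it was -8.13 on the log2(proximal/distal) scale (SE 1.73, adjusted p = 0.032), with a proximal share of 96.2% and 91.4% in free RNA at 72 h and 0% in both free libraries at 24 h. The CG32066 call was lost when reads within 100 nt of each site were counted, with unlisted sites at 1 read, with only the libraries compared, and without 24 h free replicate 1 or 2, 24 h 4+ replicate 1, 72 h free replicate 1 or 72 h 4+ replicate 2. In fzr it was -6.05 (SE 1.10, adjusted p = 0.018), from 3.73 at 24 h to -2.32 at 72 h. The fzr call was lost with only the libraries compared, and without 72 h free replicate 1, 24 h 4+ replicate 1 or either 24 h free library.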

How the results depend on the processing

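Counts are members called in either direction. With only the libraries compared in the fit, no member passed at 24 or 32 h in lysate and 184 at 48 h, and in the gradient against free RNA 20 passed at 24 h, 12 at 48 h and 110 at 72 h; against 80S these were 0, 0 and 2. Distal levels then gave 199 and the gene lists 8. With at least 10 listing minimums at the pair (fewer pairs tested), lysate gave 66, 192 and 138 at 32, 48 and 72 h, and 80S gave 1, 2 and 3. Unlisted sites at 1 read gave 1 and 0 against 80S at 24 and 48 h, 16 against free RNA at 48 h and 1 for the difference between times; just under the listing minimum they gave 22 against 80S at 72 h and 9 for that difference, for which equal weights gave 5 and leaving out the 72 h 60S pool 4. Counting reads within 100 nt of each site, chosen after seeing the data, gave 0 at 16 and 24 h and 1 for the difference between times, and reversed CG31313 (24 h 4+ against 80S) to -0.18. Matching within 5 nt, or leaving out pairs with the distal site in another gene (also added later), gave 1 against 80S at 24 h. Leaving out the X stretches missing at 0 h was added later too and moved neither site level count by over 1.5 times. Leaving out 1 library gave 1 to 84 at 16 h, 1 to 153 at 24 h, 41 to 267 at 32 h, 16 to 45 for 24 h 4+ against free, 1 to 20 at 48 h, 11 to 30 at 72 h, 0 to 2, 0 to 1 and 0 to 1 against 80S, 0 to 4 for the difference between times and 173 to 567 for distal levels. The cause of these changes was not tested, other than fewer pairs or libraries where named. A replicate block gave 97, 317 and 247 at 32, 48 and 72 h and 2 against 80S at 48 h, and moved no other count by over 1.5 times; the deviations of same-numbered libraries correlated at -0.27 to 0.45 in lysate (median -0.04, highest between 0 and 16 h) and at -0.15 to 0.15 in fractions, so with 2 libraries a group the numbers were not taken as pairs. Of 1002 repeats of 86 named results, 802 kept the call and direction, 199 lost the call and 1 reversed. Sites under 20 (lysate) or 10 (fraction) reads are unlisted, which limits shares of shallow pairs.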
